A study of Sus scrofa with 6 samples.

Results

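Cytosolic ribosomal proteins are the protein components of the ribosomes that translate nuclear-encoded mRNAs, and their mRNAs were compared in 2 pig breeds, in a muscle that runs along the back, the longissimus dorsi. The groups were 3 Shaziling piglets, an indigenous Chinese breed (animals 4, 5 and 6), and 3 Yorkshire piglets, a lean commercial breed (animals 1, 2 and 3). All 6 were untreated males aged 25 days, each on its own Affymetrix porcine array. The 3 animals within a breed shared both parents, and the breeds were raised on different farms, so breed, family and farm cannot be told apart, and p-values measure the spread between siblings. Members were the non-control probe sets whose gene symbol in the deposited annotation was that of a ribosomal protein (RPL or RPS with a number, RPLP0, RPLP1, RPLP2 or RPSA), or whose gene title named a 40S or 60S ribosomal protein. This gave 92 of 23999 probe sets on the array (69 of 8599 gene IDs in the file), 42 for the small (40S) subunit and 50 for the large (60S) subunit, with 60 found by symbol and 32 by title alone.

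The small subunit decodes the mRNA, and the large subunit joins amino acids into the growing chain. Each subunit is built in the nucleolus from ribosomal RNA and one copy of most of its proteins, which is why cells make these proteins in matched amounts. Ribosomal protein mRNAs carry a pyrimidine tract at their 5′ end through which nutrient and growth signals, by way of mTOR, control their translation, and in growing muscle the number of ribosomes is one of the limits on protein synthesis.

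The probe sets covered part of the ribosome. Of 32 small subunit proteins, 26 had a member probe set, and RPS2, RPS7, RPS9, RPS14, RPS15A and FAU had none. Of 47 large subunit proteins, 31 had one, and RPL3, RPL4, RPL7A, RPL13, RPL15, RPL17, RPL22, RPL26, RPL35A, RPL37, RPL39, RPL41, RPLP0 and others had none under the rule. RPL13A (listed together with another gene), RPLP2 (titled an acidic ribosomal protein) and FAU missed the rule by their wording. The paralogs RPL26L1, RPL36AL and RPL7L1 were present, whereas RPL3L, RPL22L1, RPL39L, RPS27L, RPS4Y1 and RPL10L had no member probe set. Many members were predicted "-like" entries in the old annotation, and 74 of the 92 could be given 1 current gene symbol. A cross-hybridisation note stood beside 31 members and more than 1 gene ID beside 6. Ribosomal protein genes have many processed pseudogenes, so signal from near-identical copies may be mixed in any of these values.

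Signals are the deposited log2 MAS5 signals, on which a difference of 1 is a doubling, and a probe set was tested if it was called Present on at least 3 of the 6 arrays. Of the 92 members, 87 passed (41 small, 46 large), and 86 were Present on all 6 arrays. The 5 that did not pass were an L12-like, an L9-like, an RPL30, an RPLP1 and an RPS28 probe set, of which 4 were Present on no array. Of 60 protein names, 59 kept a tested probe set. For 61 members the mean signal was at least 13, between 13.66 and 15.07, and all 61 lay within the brightest 2.02% of the 14413 tested probe sets. Members made up 56 of the 209 tested probe sets with a mean signal of at least 14 (26.8%). The other 26 tested members had mean signals from 5.77 to just under 13, and brightness here describes probe sets, not mRNA levels of one gene against another. The cut at 13 was chosen after the values were seen.

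**Figure D1:**
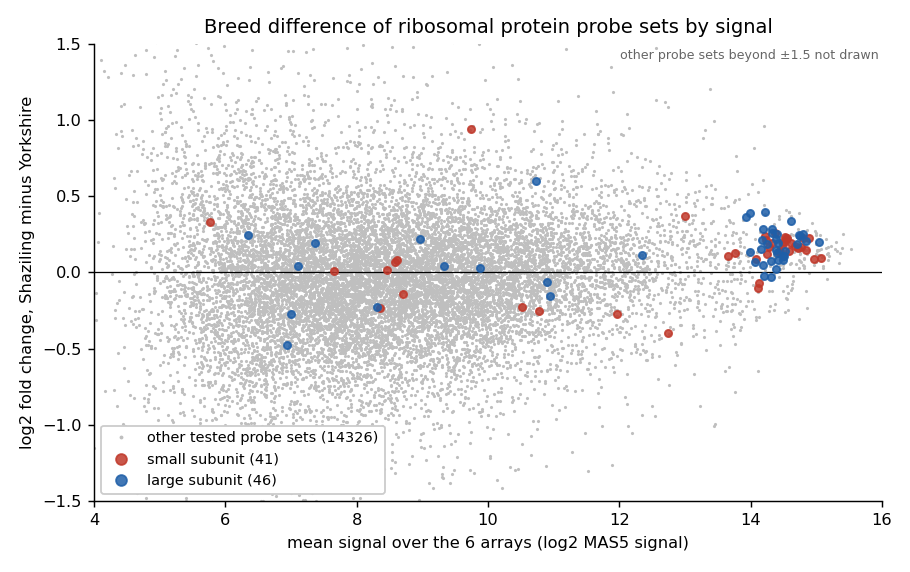
Mean log2 signal over the 6 arrays (horizontal) against the log2 fold change, Shaziling minus Yorkshire (vertical), with 1 point per tested probe set and the 87 members marked by subunit. The bright members lie in a narrow cloud mostly above 0 with a median of 0.17, and the dim members scatter on both sides of 0.

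No ribosomal protein probe set passed the test between the breeds. In the limma model over all 14413 tested probe sets, 0 of 87 members were called higher and 0 lower at an adjusted p under 0.05, against 0.215% of all tested probe sets, and the lowest adjusted p of a member was 0.324. At an unadjusted p under 0.05 there were 10 of 87 members, all higher in Shaziling, where 10.4% of all tested probe sets passed in either direction and 4.38% in the higher direction. That count was 1 with quantile normalization, 1 with cyclic loess and 16 with median centring, and lay between 1 (without Yorkshire 3 or Shaziling 6) and 22 (without Yorkshire 2) when single arrays were left out. The differences were small and mostly of one sign. The log2 fold change was above 0 for 72 members and below 0 for 15, where 46.2% of all tested probe sets were above 0. Its median over the members was 0.14 (quartiles 0.06 and 0.22), against a median of -0.04 over all tested probe sets (quartiles -0.29 and 0.21). The 3 Shaziling arrays lay wholly above the 3 Yorkshire arrays for 33 members and wholly below for 3, where 7.42% and 8.89% of all tested probe sets did so. In bulk muscle, fewer cells of a type and less RNA per cell cannot be told apart. The members' median moved with the scaling, to 0.07 with quantile normalization, 0.05 with cyclic loess and 0.22 with median centring.

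Replicates of a breed lay close together for the bright members. The median within-breed SD was 0.095 over the 61 bright members, 0.19 over other probe sets with a mean signal of at least 13, 0.29 over the 26 dim members and 0.34 over all tested probe sets. Among the 61 bright members, 95% intervals of the fold change reached from -0.43 to 0.71 at their widest ends. The largest fold was 1.32 and the median 1.13. Whether signals this bright were compressed near the top of the array's range was not tested. Intervals of 9 bright members lay above 0 and of 0 below, before adjustment for the number of probe sets, and 40 of the 393 other probe sets of that brightness were higher at an unadjusted p under 0.05.

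Both subunits had small, similar medians. The median log2 fold change was 0.14 over 41 small subunit probe sets (33 above 0) and 0.15 over 46 large subunit probe sets (39 above 0), a difference of -0.01 between them. With 1 probe set per protein, the brightest, the medians were 0.17 over 26 small subunit proteins (24 above 0) and 0.15 over 33 large subunit proteins (29 above 0). Among the bright members they were 0.17 over 28 small subunit probe sets and 0.19 over 33 large ones, with 16 probe sets wholly higher in Shaziling in each subunit. Of all tested probe sets 7.42% were wholly higher, and of the others of that brightness 15.8%. At an unadjusted p under 0.05 stood 2 of 41 small and 8 of 46 large subunit probe sets, all higher, where 4.38% of all tested probe sets were. Over both subunits that count was 1 with quantile normalization and 1 with cyclic loess.

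In the small subunit, RPS12, RPS26, RPS19 and RPS15 are named for the 4 smallest unadjusted p-values by limma, with 1 probe set per protein. That choice favours arrays without overlap, and 7.42% of all tested probe sets were wholly higher in Shaziling. RPS26, which lies where the mRNA leaves the ribosome, had log2 signals of 14.61, 14.71 and 14.67 in Shaziling piglets, against 14.46, 14.45 and 14.41 in Yorkshire piglets. RPS12 had 14.54, 14.53 and 14.45 in Shaziling and 14.16, 14.36 and 14.21 in Yorkshire. For both genes every Shaziling array lay above every Yorkshire array, by log2 fold changes of 0.22 (SE 0.11, limma adjusted p = 0.514) and 0.26 (SE 0.11, limma adjusted p = 0.480). RPS19, a gene mutated in Diamond-Blackfan anaemia in people, had 14.87, 15.01 and 14.84 in Shaziling, against 14.60, 14.75 and 14.70 in Yorkshire. RPS15 had 14.40, 14.30 and 14.30 in Shaziling and 13.96, 14.18 and 14.14 in Yorkshire. These arrays did not overlap between breeds either, with log2 fold changes of 0.22 and 0.24 (SE 0.11 and 0.12). Their limma adjusted p-values were 0.531 and 0.534, so neither passed.

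RPS6, the protein phosphorylated by S6 kinase, had signals of 14.69, 14.81 and 14.79 in Shaziling and 14.62, 14.58 and 14.57 in Yorkshire (log2 fold change 0.17, SE 0.11, limma adjusted p = 0.614). The groups did not overlap, but the gap between the nearest arrays was smaller than the spread of the Shaziling arrays. RPS18, whose brightest probe set was also the brightest small subunit member, had 15.10, 15.07 and 15.17 in Shaziling and 15.04, 15.05 and 14.98 in Yorkshire. Its log2 fold change was 0.09 (SE 0.10, limma adjusted p = 0.787) and turned to -0.04 with quantile normalization and -0.05 with cyclic loess.

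Lower mean signals in Shaziling were found at 4 bright members, those of RPSA, RPS4X, RPL32 and RPL14. RPSA, also known as the laminin receptor, had 14.13, 13.99 and 14.06 in Shaziling and 14.09, 14.25 and 14.14 in Yorkshire (log2 fold change -0.10, SE 0.12, limma adjusted p = 0.810). RPS4X, the X-linked S4 gene, had 14.03, 14.10 and 14.14 in Shaziling, against 14.12, 14.48 and 13.89 in Yorkshire (log2 fold change -0.07, SE 0.16, limma adjusted p = 0.913). For both the breeds overlapped, and the Yorkshire 2 array was the highest of the 6. The other RPS4X probe set had 12.35, 12.62 and 12.66 in Shaziling and 13.06, 13.58 and 12.19 in Yorkshire, where the Yorkshire arrays spread more widely than the breeds differed (log2 fold change -0.40, SE 0.30, limma adjusted p = 0.698). Without Yorkshire 2 that value was -0.079, and without Yorkshire 3 it was -0.77.

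In the large subunit, the smallest unadjusted p-values belonged to L36a-like, RPL27, RPL30 and RPL12, a choice that again favours arrays without overlap. The L36a-like probe set, counted here with RPL36A, had signals of 14.03, 14.21 and 14.29 in Shaziling and 13.82, 13.85 and 13.69 in Yorkshire. RPL30, which in yeast also binds its own transcript and limits its splicing, had 14.22, 14.54 and 14.50 in Shaziling and 14.005, 14.17 and 13.89 in Yorkshire. All 3 Shaziling arrays were above all 3 Yorkshire arrays for both genes. The L36a-like log2 fold change was 0.39 (SE 0.13, 95% interval 0.10 to 0.67, limma adjusted p = 0.324), and a second L36a-like probe set gave 0.36 (SE 0.14). For RPL30 it was 0.40 (SE 0.14, 95% interval 0.09 to 0.71, limma adjusted p = 0.348), the largest among the bright members. Both L36a-like probe sets and that of RPL30 carried a cross-hybridisation note. Neither L36a-like probe set could be given a current gene symbol, so which gene they measure is uncertain.

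RPL27 had 14.82, 14.77 and 14.77 in Shaziling and 14.42, 14.59 and 14.33 in Yorkshire. Its Shaziling arrays differed by less than its Yorkshire arrays did, and the log2 fold change was 0.34 (SE 0.12, limma adjusted p = 0.344), with 0.28 at its other probe set. RPL12, which forms the base of the ribosomal stalk, had 14.29, 14.25 and 14.43 in Shaziling and 13.99, 14.07 and 14.06 in Yorkshire (log2 fold change 0.28, SE 0.12, limma adjusted p = 0.434). RPLP1, an acidic protein of the same stalk, which recruits elongation factors, had 14.84, 15.03 and 14.90 in Shaziling and 14.69, 14.65 and 14.68 in Yorkshire (log2 fold change 0.25, SE 0.11, limma adjusted p = 0.461). Both stalk genes had higher signals on every Shaziling array than on any Yorkshire array.

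RPL5 and RPL11, which bind 5S ribosomal RNA and, when ribosome assembly is disturbed, the p53 regulator MDM2, had smaller differences. RPL5 had 14.87, 14.94 and 15.04 in Shaziling and 14.69, 14.88 and 14.67 in Yorkshire, with 1 Yorkshire array inside the Shaziling range (log2 fold change 0.20, SE 0.11, limma adjusted p = 0.573). RPL11 had 14.61, 14.58 and 14.58 in Shaziling, against 14.41, 14.45 and 14.48 in Yorkshire (log2 fold change 0.14, SE 0.11, limma adjusted p = 0.689). RPL10, the brightest large subunit member, which completes the maturing 60S subunit, had 14.93, 15.35 and 15.13 in Shaziling and 15.00, 14.90 and 14.91 in Yorkshire, and the breeds overlapped (log2 fold change 0.20, SE 0.13, limma adjusted p = 0.638). RPL7 had 14.83, 14.97 and 14.77 in Shaziling and 14.67, 14.69 and 14.48 in Yorkshire, without overlap (log2 fold change 0.24, SE 0.12, limma adjusted p = 0.518).

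**Figure D2:**
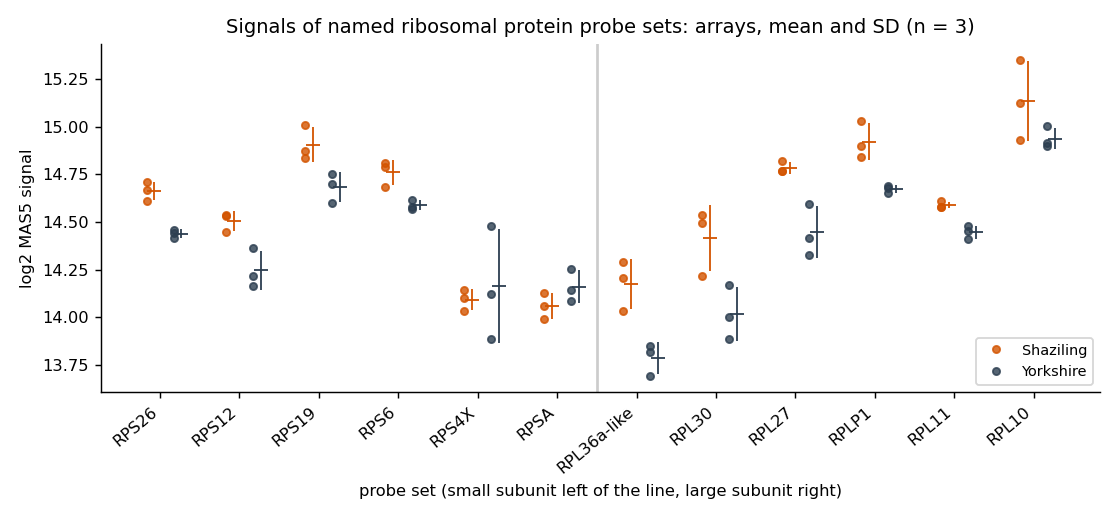
Log2 MAS5 signal on each array for 12 named bright members, Shaziling points left of Yorkshire points for each gene, with the breed mean and SD (n = 3) beside them. Every Shaziling point lies above every Yorkshire point for RPS26, RPS12, RPS19, RPS6, L36a-like, RPL30, RPL27, RPLP1 and RPL11, while the points of RPS4X, RPSA and RPL10 overlap. RPS26, RPS12, RPS19, L36a-like, RPL30 and RPL27 were chosen for small p-values, which favours points without overlap.

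The ribosomal protein paralogs on the array were dimmer, and their breeds overlapped. RPL7L1, whose yeast counterpart acts in 60S assembly, had 11.11, 10.62 and 10.86 in Shaziling and 10.97 to 11.08 in Yorkshire (log2 fold change -0.15, SE 0.19, limma adjusted p = 0.821). RPL26L1 had 10.88, 10.80 and 10.93 in Shaziling and 10.91, 11.05 and 10.83 in Yorkshire, a log2 fold change of -0.06 (SE 0.17). RPL36AL had 12.51, 12.21 and 12.49 in Shaziling and 12.05, 12.54 and 12.29 in Yorkshire, a log2 fold change of 0.11 (SE 0.18). None of the 3 differed by more than its SE.

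Dim members were divided in sign. Of the 26 tested members with a mean signal under 13, 15 had a log2 fold change above 0 and 11 below, with a median of 0.02. The groups were apart for 1 higher and 3 lower probe sets (2 of RPL10A and 1 of RPS20). That was 15.4% of the dim members, no more than the 16.3% of all tested probe sets. The largest differences of all members were among the dim ones. An S27-like probe set had 9.91, 10.31 and 10.44 in Shaziling and 8.68, 10.63 and 8.52 in Yorkshire, and its arrays overlapped (log2 fold change 0.94, SE 0.49, limma adjusted p = 0.550). Its fold change was 1.62 without Yorkshire 2 and 0.57 without Yorkshire 3. The dimmer L38-like probe set had 11.72, 9.59 and 11.79 in Shaziling and 10.39, 10.45 and 10.46 in Yorkshire (log2 fold change 0.60, SE 0.50, limma adjusted p = 0.731), and its fold rested on 2 Shaziling arrays while Shaziling 5 was the lowest of the 6, so that leaving out 1 array gave 0.22 (without Shaziling 6) to 1.32 (without Shaziling 5). RPL10A had a probe set with 6.66, 6.75 and 6.69 in Shaziling and 7.07, 6.83 and 7.61 in Yorkshire, the most negative log2 fold change of the members at -0.47 (SE 0.29, limma adjusted p = 0.622), or -0.25 without Yorkshire 3.

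How the old annotation had tied probe sets to genes went along with brightness. Of the 61 bright members, 57 were assigned by matching probes to a transcript, against 8 of the 31 others among all 92. The 65 tested members assigned by matching probes had a median log2 fold change of 0.17 (58 above 0). The 13 tested members assigned through clusters of accessions had a median of -0.14 (6 above 0), and the 9 assigned by overlap of the target with the genome 0.19 (8 above 0). The 8 dim members assigned by matching probes had a median of 0.16 (5 above 0). The part of this assignment in the results was not tested. The cross-hybridisation note made little difference among bright members, with a median of 0.18 over 30 that carried it and 0.15 over 31 that did not.

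Probe sets for one protein did not always point the same way. Of 22 proteins with more than 1 member probe set, 21 had more than 1 tested, and some of these had fold changes of both signs, among them RPL10A, RPS15 and RPS20. The brighter RPS15 probe set gave 0.24 and the dimmer -0.27, with 11.71, 11.58 and 12.21 in Shaziling and 11.87, 13.21 and 11.23 in Yorkshire. The log2 fold changes of RPL10A ranged from -0.47 to 0.20, with the positive one at its bright probe set. RPS20, looked at after its values were seen, had 4 probe sets that the file placed on 4 chromosomes, with 0.09 at the bright one and between -0.24 and -0.14 at the others. For these 3 proteins the brightest probe set had the positive sign.

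Where several probe sets agreed in sign, their sizes could still be far apart. The 4 S27-like probe sets gave 0.09, 0.37, 0.94 and 0.08 in order of falling brightness. The second of these had 13.27, 13.13 and 13.14 in Shaziling and 12.72, 12.95 and 12.76 in Yorkshire (SE 0.14, limma adjusted p = 0.390), without overlap. The brightest had 14.17, 14.04 and 14.16 in Shaziling and 13.93, 14.16 and 14.01 in Yorkshire, and the dimmest 8.61, 8.62 and 8.72 in Shaziling and 8.30, 9.04 and 8.37 in Yorkshire, both with overlap. For RPL7 the bright and the dimmest large subunit probe set gave 0.24 and 0.25, but the dim one rested on 5.96, 6.45 and 6.97 in Shaziling and 6.40, 6.39 and 5.86 in Yorkshire (SE 0.37). The dimmest small subunit member, an S13-like probe set, had 5.16, 6.45 and 6.21 in Shaziling and 5.95, 5.58 and 5.28 in Yorkshire (log2 fold change 0.33, SE 0.44, limma adjusted p = 0.835).

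**Figure D3:**
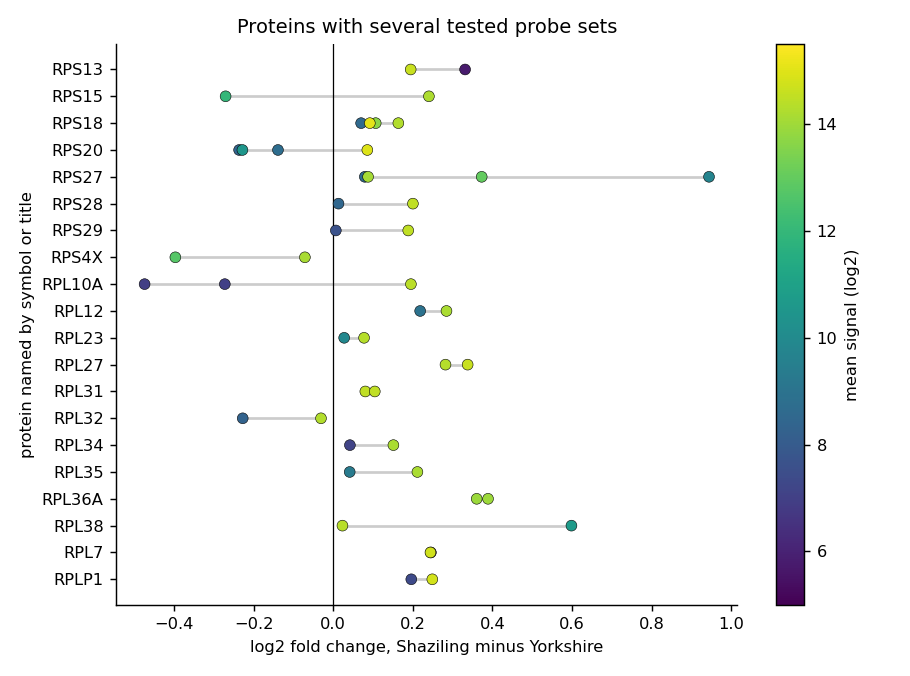
Log2 fold change, Shaziling minus Yorkshire, of every tested probe set of 20 proteins that had more than 1, with 1 point per probe set coloured by mean log2 signal and a line joining the probe sets of a protein. The bright probe sets lie in a narrow range, mostly above 0, and the dimmer ones spread from -0.47 to 0.94.

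On the deposited signals, the bright members shared a pattern across arrays. For each probe set, the deviation of each array from the mean of the 6 was taken. The median deviation of the 61 bright members was 0.07, 0.11 and 0.07 on the Shaziling 4, 5 and 6 arrays, and -0.14, -0.01 and -0.12 on the Yorkshire 1, 2 and 3 arrays. On this scale the Yorkshire 2 array stood between its siblings and the Shaziling arrays. The small subunit had medians of 0.06, 0.13 and 0.07 in Shaziling and -0.14, 0.00 and -0.10 in Yorkshire, and the large subunit 0.08, 0.10 and 0.08 in Shaziling and -0.16, -0.02 and -0.14 in Yorkshire. This order of arrays did not hold under other scalings. With quantile normalization the bright members' medians were 0.068, 0.0048 and 0.053 on Shaziling 4, 5 and 6, and -0.10, 0.067 and -0.087 on Yorkshire 1, 2 and 3. With cyclic loess they were 0.068, -0.053 and 0.055 in Shaziling and -0.11, 0.074 and -0.052 in Yorkshire. Yorkshire 2 was then level with or above the highest Shaziling array, and Shaziling 5 below the other 2 Shaziling arrays.

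Single probe sets on the deposited signals followed the same order. The highest of the 6 arrays was Shaziling 5 for 26 of the 61 bright members, Shaziling 4 for 16 and Shaziling 6 for 11, against Yorkshire 2 for 8 and Yorkshire 1 and 3 for 0. The lowest was Yorkshire 1 for 31, Yorkshire 3 for 23 and Yorkshire 2 for 4, against 3 for the Shaziling arrays together. Of the 29 bright members whose breeds were not wholly apart with Shaziling higher, 24 had Yorkshire 2 as the highest Yorkshire array. The same held for 47 of all 61 bright members. Without Yorkshire 2, the median over all 87 members was 0.21, and over the leave-one-out fits it lay between 0.12 and 0.21.

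**Figure D4:**
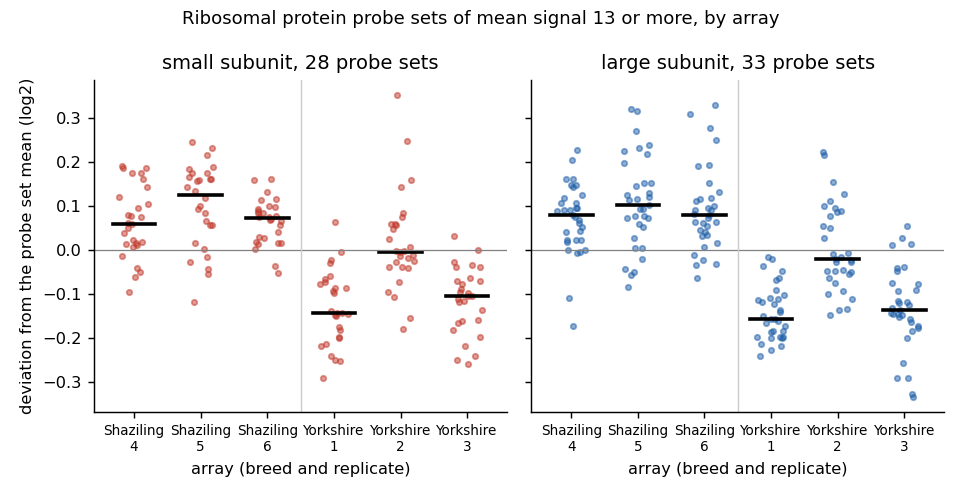
Deviation of each array from the probe set's mean over the 6 arrays (log2, deposited signals), for the 28 small and 33 large subunit members with a mean signal of at least 13, with 1 point per probe set, bars at the medians and Shaziling arrays left of Yorkshire arrays. Medians are 0.06 to 0.13 on the Shaziling arrays and -0.16 to 0.00 on the Yorkshire arrays, with Yorkshire 2 the highest of the 3 in both subunits.

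Other probe sets of like brightness shared part of this shift. The 393 other tested probe sets with a mean signal of at least 13 had a median log2 fold change of 0.11, with 264 above 0 (67.2%), against 0.17 and 57 of 61 for the members. The breeds were wholly apart with Shaziling higher for 32 of 61 bright members and 62 of 393 others, and with Shaziling lower for 0 members and 23 others. In the band of signals from 14 to 15, the only one with more than 20 members, the median was 0.18 over 54 members (50 above 0) and 0.12 over 125 other probe sets (92 above 0). On single arrays the other bright probe sets had median deviations of 0.03, 0.12 and 0.02 on Shaziling 4, 5 and 6, and 0.00, -0.11 and 0.00 on Yorkshire 1, 2 and 3. On this scale their low Yorkshire array was Yorkshire 2, whereas the members were low on Yorkshire 1 and 3.

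The size of the shift depended on the scaling of the arrays. With quantile normalization the median over the 87 members was 0.07 (63 above 0), with cyclic loess 0.05 (61 above 0), and with each array centred on its median 0.22 (76 above 0), where the median of all tested probe sets was 0.00, 0.00 and 0.04. In the band from 14 to 15, quantile normalization gave 0.07 over the members and 0.00 over the others, and cyclic loess 0.05 and -0.01. In that band the members' median thus lay above that of the other probe sets under all these scalings, by 0.06 on the deposited signals. The spread of this difference between replicates was 0.10, larger than the difference itself. The scalings all used the same arrays, so their shared sign does not make up for that spread. Over the alternatives tried the difference was 0.03 to 0.13, a description to which no test was attached. In lower bands, with few members each, the order varied on the deposited signals. From 8 to 9 the median was 0.01 over 7 members against -0.06 over the others. From 10 to 11 it was -0.15 over 5 members against -0.0008. Of the bright members, 8 were wholly higher in Shaziling and 2 wholly lower under quantile normalization, 4 and 0 under cyclic loess, and 38 and 0 under median centring. The share wholly higher was thus 13.1%, 6.56% and 62.3%, against 7.93%, 7.89% and 9.65% of all tested probe sets, so that under cyclic loess it was no larger than the background. Among the named genes, RPL30 kept log2 fold changes of 0.31 and 0.28 and L36a-like 0.33 and 0.28 under quantile normalization and loess. Other named genes shrank more. Under the same 2 scalings RPS6 had 0.05 and 0.04, and RPL11 0.04 and 0.02. RPL5 had 0.07 and 0.07, RPL10 0.06 and 0.05, and RPS19 0.11 and 0.09. RPSA had -0.18 and -0.21.

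**Figure D5:**
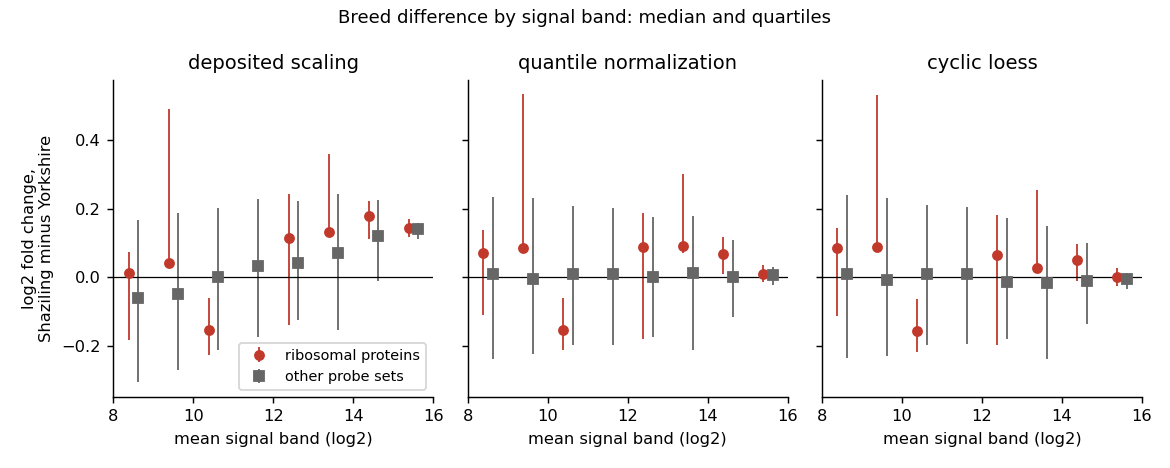
Median log2 fold change, Shaziling minus Yorkshire, by band of mean log2 signal for members and for other tested probe sets, with bars from the lower to the upper quartile, on the deposited scale, after quantile normalization and after cyclic loess (bands from 8 up that hold at least 2 probe sets). In the band from 14 to 15 the members lie above the others in each panel, at 0.18, 0.07 and 0.05 against 0.12, 0.00 and -0.01, and the lower bands hold few members.

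Array quality was read from the calls and the actin control. Present calls made up 59.9%, 56.3% and 58.1% of probe sets on the Shaziling arrays and 59.9%, 58.2% and 60.6% on the Yorkshire arrays. The log2 signal of the actin control at its 3′ end exceeded that at its 5′ end by 4.16, 4.23 and 4.98 in Shaziling and 5.11, 4.82 and 4.97 in Yorkshire. The 2 arrays with the least 3′ excess were thus Shaziling 4 and 5. The part of this 3′ excess in the result was not tested.

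Markers of other cells were also compared. Skeletal muscle fibre markers were bright, with 10 genes tested, 9 of them above 0, and a median of 0.09 that turned to -0.03 with quantile normalization and -0.05 with cyclic loess. The gene below 0, myoglobin (MB), had the largest difference of that list, -0.99 (SE 0.28, limma adjusted p = 0.288). The erythroid marker HBE1 and the lymphocyte markers CD2, CD3D, CD3E, CD79B and LCK were Present on no array. Of 8 erythroid markers listed, 2 were found on the array and 0 were tested, so erythroid RNA could not be assessed. The summed linear signal of the 2 tested lymphocyte genes, PTPRC and CD3G, was 90.9 to 105 in Shaziling and 65.9 to 112 in Yorkshire. Of 5 tested macrophage and neutrophil genes, 4 were above 0, with a signal summed over the 5 of 1473 to 1905 in Shaziling and 768 to 1541 in Yorkshire, and the lysozyme gene LYZ was called higher (log2 fold change 2.05, limma adjusted p = 0.0425). S100A9, of neutrophils, had 2.07 (SE 0.55, limma adjusted p = 0.250) but was dim and Present on only 3 of the 6 arrays. Its signals were 5.98, 6.40 and 6.66 in Shaziling and 3.12, 4.89 and 4.82 in Yorkshire. VWF, of endothelium, had 2.25 (SE 0.45, limma adjusted p = 0.120) and was Present on 5 arrays. Of 5 tested genes each, 0 fibroblast markers (median -0.22) and 3 endothelial markers (median 0.05) were above 0, as were 2 of 4 adipocyte markers (median -0.14), with 0 called by limma and 1 endothelial gene higher, 1 endothelial gene lower and 1 adipocyte gene lower at an unadjusted p under 0.05. The part of these cells in the ribosomal protein values was not tested.

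Ribosomal components outside the naming rule had values close to those of the members. The log2 fold change was 0.20 for RACK1 (SE 0.11), a scaffold on the 40S subunit. For FAU, which encodes RPS30 fused to a ubiquitin-like domain, it was 0.16 (SE 0.12). The limma adjusted p-values were 0.590 and 0.686, and neither gene stood at an unadjusted p under 0.05. Of 12 other mRNAs with a 5′ pyrimidine tract, 8 were above 0, with a median of 0.08 that was 0.00 after quantile normalization and -0.02 after cyclic loess. In that list NAP1L1, a histone chaperone, had 0.35 (SE 0.16), EEF1B2, a subunit of the elongation factor that loads tRNA, 0.15 (SE 0.10), and TPT1 0.17 (SE 0.12). These 3 are named for the smallest p-values of the list and are all above 0, whereas 4 of the 12 were below 0. By limma 0 of the 12 were called or stood at an unadjusted p under 0.05.

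Genes that build ribosomes mostly had fold changes below 0, and 0 of them passed the limma test. Over all tested probe sets, 46.2% were above 0. Of 22 tested genes for transcription and processing of ribosomal RNA, 4 were above 0 and 18 below, with a median of -0.32. At an unadjusted p under 0.05, 4 were lower, where 6.02% of all tested probe sets were. The median over the 22 was -0.26 after quantile normalization or cyclic loess. IMP3, part of the small subunit processome, had 10.65, 10.23 and 10.51 in Shaziling and 11.22, 11.48 and 11.07 in Yorkshire (log2 fold change -0.80, SE 0.20, limma adjusted p = 0.219), with no overlap. POLR1E, an RNA polymerase I subunit, had -0.76 (SE 0.24) and UTP6, another processome protein, -0.74 (SE 0.26). Of 17 genes for 60S maturation, 5 were above 0 and 12 below (median -0.14), with 4 lower at an unadjusted p under 0.05. The median over the 17 was -0.07 after quantile normalization or cyclic loess. In that list PAK1IP1 had 8.29, 8.29 and 8.64 in Shaziling and 9.66, 10.13 and 9.58 in Yorkshire, the lowest p of these lists (log2 fold change -1.38, SE 0.24, limma adjusted p = 0.0727), and LSG1, a GTPase that releases an export factor from the 60S subunit, had -0.78 (SE 0.23) and GNL3L -0.58 (SE 0.23).

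The 9 genes for 40S maturation were divided, 4 above 0 and 5 below, with a median of -0.03 that became 0.04 after quantile normalization or cyclic loess. After either, 6 of the 9 were above 0. NOB1, the nuclease that makes the 3′ end of 18S ribosomal RNA, had -0.68 (SE 0.34), AATF 0.38 (SE 0.28) and TSR2, the chaperone of RPS26, -0.22 (SE 0.22), with 0 of 9 at an unadjusted p under 0.05. Of 6 tested regulators of ribosomal protein synthesis, 1 was above 0 and 5 below (median -0.21). EIF4EBP2, a repressor of cap-dependent translation, had -0.26 (SE 0.22), the S6 kinase gene RPS6KB1 -0.33 (SE 0.32) and MYC -0.42 (SE 0.42), with none at an unadjusted p under 0.05.

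Mitochondrial ribosomal proteins, which translate the mRNAs of the mitochondrial genome, mostly had fold changes below 0. Of 46 tested genes, 12 were above 0 and 34 below, with a median of -0.21, where 46.2% of all tested probe sets were above 0. By limma 0 were called, and 6 of 46 were lower at an unadjusted p under 0.05, against 6.02% of all tested probe sets. MRPL11 had 9.85, 9.46 and 9.24 in Shaziling and 10.12, 10.08 and 10.18 in Yorkshire, without overlap (log2 fold change -0.61, SE 0.22, limma adjusted p = 0.365). MRPL28 had -0.67 (SE 0.25) and MRPL39 -0.53 (SE 0.20). These probe sets were dimmer than most cytosolic members, with a median mean signal of 10.29, and the difference between the 2 families was not tested.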

How the data were processed

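RNA was labelled with a 3′ amplification kit, per the labels' protocols. The authors deposited log2 signals from MAS5, a tool named in the submitters' processing notes (version not given in the sources used here), and each array had a 2% trimmed mean of 500.1 to 500.2. The other deposited values are Present, Marginal or Absent detection calls, per the file headers. Signals in the 2 tables differed at 0 values. From these, probe sets Present on at least 3 of 6 arrays were tested (14413 of 23999) with limma 3.58.1 in R 4.3.3 (lmFit, eBayes with trend), p-values adjusted by Benjamini-Hochberg across the 14413, a threshold of adjusted p under 0.05 and no further normalization. The scripts were tested on simulated data. There, 0.4% of planted log2 differences of 0.5 and 14% of those of 1 were called, in probe sets drawn from all tested ones. Differences as small as most of the members' could thus hardly be called.

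The members and gene lists were chosen with earlier results of these data known. Genes named were those of the 4 smallest p-values per subunit, the largest differences, the brightest and dimmest members, the paralogs, the stalk proteins, RPSA, RPL5, RPL11, RPS6, and the 3 smallest p-values of each list of ribosome genes. RPL14, RPL32 and RPS20 were named after their values were seen. A few genes are not reported here. Symbols were updated through Entrez IDs and a RefSeq gene table. The number of arrays, 3 per breed, limits the precision. Alternatives were other normalizations, filters, offsets and variance models, each array left out, and other choices of probe set.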

Additional observations from a re-analysis of the deposited data

How the results depend on the processing

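Under every alternative run, 0 members passed the limma threshold, which with 3 arrays per breed says nothing about the stability of differences of this size. Members at an unadjusted p under 0.05 numbered 10, against 0 without the variance trend, 1 with quantile normalization, 1 with cyclic loess, 4 without a filter, 16 with median centring, 27 with array weights, and 1 to 22 when single arrays were left out. The median over the members (0.14) was 0.071 with quantile normalization, 0.054 with cyclic loess, 0.22 with median centring, and 0.12 to 0.21 when single arrays were left out. The small minus large difference (-0.01) was 0.0084 with array weights, -0.031 with members found by symbol, and -0.034 to 0.022 when single arrays were left out. Over all tested probe sets, 31 were called, against 13 without a filter, 19 with Present calls on all 6 arrays, 8 without the trend, 364 with array weights, and 0 to 27 when single arrays were left out (0 without Yorkshire 1 and 0 without Shaziling 6, with 1020 and 1096 at an unadjusted p under 0.05, 5 without Shaziling 5 and 11 without Yorkshire 2). Signs turned for RPL26L1 (0.016 with median centring), RPL36AL (-0.0078 without Yorkshire 1, to 0.24 without Yorkshire 2), the dim RPL7 probe set (-0.0099 without Shaziling 6, to 0.50 without Shaziling 4), RPS18 (-0.038 quantile, -0.052 loess), the brightest S27-like probe set (-0.023 loess), the dimmest S27-like one (-0.055 without Yorkshire 1, to 0.31 without Yorkshire 2) and bright RPS4X (0.0070 median centring, and -0.21 without Yorkshire 3 to 0.087 without Yorkshire 2). The cause was not tested. Restricting members to matching probes or to bright signals was chosen after seeing the data. No paired analysis was possible because the breeds share no replicate number.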

Other observations

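Of the members that were not tested, the second RPLP1 probe set had a mean signal of 7.11 in Shaziling and 6.52 in Yorkshire. Its gene ID, shared with another dim RPLP1 probe set (log2 fold change 0.20), has a placeholder name in current annotation, so whether these 2 probe sets measure RPLP1 is uncertain.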
